A study of Homo sapiens with 12 samples.

Results

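The quantity described is the difference between 2 drug responses, computed gene by gene: the change with the LSD1 inhibitor ORY-1001 in the small cell lung cancer line H211 minus the change in the line H82. The values are abundances per gene on the scale of TPM (transcript abundance as a share of its library), which allow for gene length, rescaled between libraries, and were taken as log2(value + 1). The response of a line is its mean over the treated libraries minus its mean over the control libraries, and a positive difference means that the H211 response was the higher of both. Of the 56508 rows of the deposited table, 15456 reached 1 in 3 or more of the libraries and were tested. At that limit, AC099550.1, with a third-highest value of 1.0001, was just inside, and AC104596.1, at 0.99972, just outside.

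The study has 12 bulk RNA libraries in 4 groups of 3: H82 control, H82 with ORY-1001, H211 control and H211 with ORY-1001. Both lines are labelled wild type, and ORY-1001 was given at 1 µM. The control is called PBS in the sample labels and vehicle in the protocol, and the duration is 7 days in the former and 10 days in the latter. Each background is 1 cell line, so a difference between the responses is a difference between these lines. No label says that the libraries of a group were separate cultures, so p-values measure the spread between these libraries, which may be technical. In bulk RNA, fewer cells of a type and less RNA per cell cannot be told apart.

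LSD1, encoded by KDM1A, removes methyl groups from a lysine in the histone H3 tail, works with CoREST proteins and histone deacetylases, and is brought to genes by SNAG-domain factors such as GFI1, GFI1B, INSM1 and SNAI1. H82 is a NEUROD1-type neuroendocrine line. H211 is a tuft-like line, driven by POU2F3, the transcription factor that specifies chemosensory tuft cells. The values carried both identities. NEUROD1 was at 138, 135 and 139 in the H82 controls and at 1.40, 2.10 and 1.56 in the H211 controls. POU2F3 was at 2.72, 1.78 and 2.42 in the H82 controls and at 285, 281 and 277 in the H211 controls. Neither response difference was called for these factors, with 0.20 for NEUROD1 (adjusted p = 0.243) and 0.15 for POU2F3 (adjusted p = 0.513). KDM1A itself lay between 181 and 195 in all 12 libraries, with a difference between the responses of -0.02 (95% interval -0.13 to 0.10). The inhibitor acts on the enzyme, so this level does not check the treatment labels.

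Library totals ran from 967415 to 1111988, and libraries of a group correlated across genes at r = 0.9881 to 0.9912. Transcripts of blood cells varied within groups, and some moved with treatment. The summed value of 20 blood markers was 42.6 to 56.9 in the H82 controls, 52.6, 55.6 and 154.8 in treated H82, 150.4, 282.7 and 43.0 in the H211 controls and 47.3, 36.6 and 54.5 in treated H211. HBB, the adult beta-globin, was at 0 in 10 libraries. In H82, SRGN, a granule proteoglycan, was at 0.285, 0.960 and 0.711 in the controls and at 14.4, 14.1 and 11.3 with the drug. MPO, the neutrophil peroxidase, was at 0.0849 or less in the H82 controls and at 8.71, 8.55 and 24.3 in treated H82. HBG2, a fetal globin, went from 23.9, 28.2 and 22.4 in H82 without the drug to 0, 0.120 and 53.02 with it. Of the 12 blood markers tested, SRGN and MPO had a called difference, -3.73 and -4.42 (adjusted p = 0.0388 and 0.0390). Some values matched across groups. H211 control replicate 1 had MPO at 24.3 and HBG2 at 47.4, close to H82 ORY-1001 replicate 3. H211 ORY-1001 replicate 3 had MPO at 8.57 and HBG2 at 0, close to H82 ORY-1001 replicates 1 and 2. In H82, MPO separated all treated from all control libraries, also without the 4 libraries named below. In that line, what these transcripts mark cannot be told apart from the drug. The part of these transcripts in the results was not tested. Counts that move by over 1.5 times are given also without 4 libraries in which some of these markers differed from the other libraries of their own group (H82 ORY-1001 replicate 3, H211 control replicates 1 and 2, and H211 ORY-1001 replicate 3), a setting chosen after the data were seen. It does not remove the blood transcripts: H82 ORY-1001 replicates 1 and 2 were kept, with LYZ, the lysozyme of myeloid cells, at 16.0 and 18.7 against 16.1 in H211 ORY-1001 replicate 3. It leaves 1 H211 control library, which is assumed to vary like the other groups.

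The responses of both lines differed for 4956 genes, 32.1% of those tested (limma, Benjamini-Hochberg adjusted p under 0.05). For 2747 genes (17.8%) the response was higher in H211, and for 2209 (14.3%) it was lower. That split turned to 2229 higher and 2557 lower with totals computed without mitochondrial genes, and was 2507 and 2495 after quantile normalization. In H82, 2949 genes rose (19.1%) and 3694 fell (23.9%). In H211, 1383 rose (8.95%) and 1485 fell (9.61%). Without mitochondrial genes in the totals, the H211 split was 961 higher and 2016 lower. Without the 4 libraries, 2899 differences and 559 H211 changes were called. Across all tested genes the responses of both lines correlated at r = 0.134, and across the 8190 genes with a mean of at least 5 in each line at r = 0.283. These are descriptions over genes that share libraries.

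The 4956 genes fell into 5 patterns. In 3106 the change was called in H82 and not in H211, in 828 in H211 and not in H82, in 433 in both lines with opposite signs and in 317 in both with the same sign, and 272 were called in neither line. A change called in one line and missed in the other does not show that the other line did not respond. Stricter groups were therefore formed among the genes at 5 or more in both lines. A gene was placed in a one-line group if its change was called and at least 2-fold in one line, the 95% interval of the other line's response lay within 1.5-fold either way, and the difference was called. It was placed in an opposite group if both changes were called with opposite signs, whatever their size. Folds in these rules are on the log2(value + 1) scale. In these terms 74 genes responded in H82 only (27 up, 47 down), 26 in H211 only (19 up, 7 down), and 303 moved in opposite directions.

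**Figure D1:**
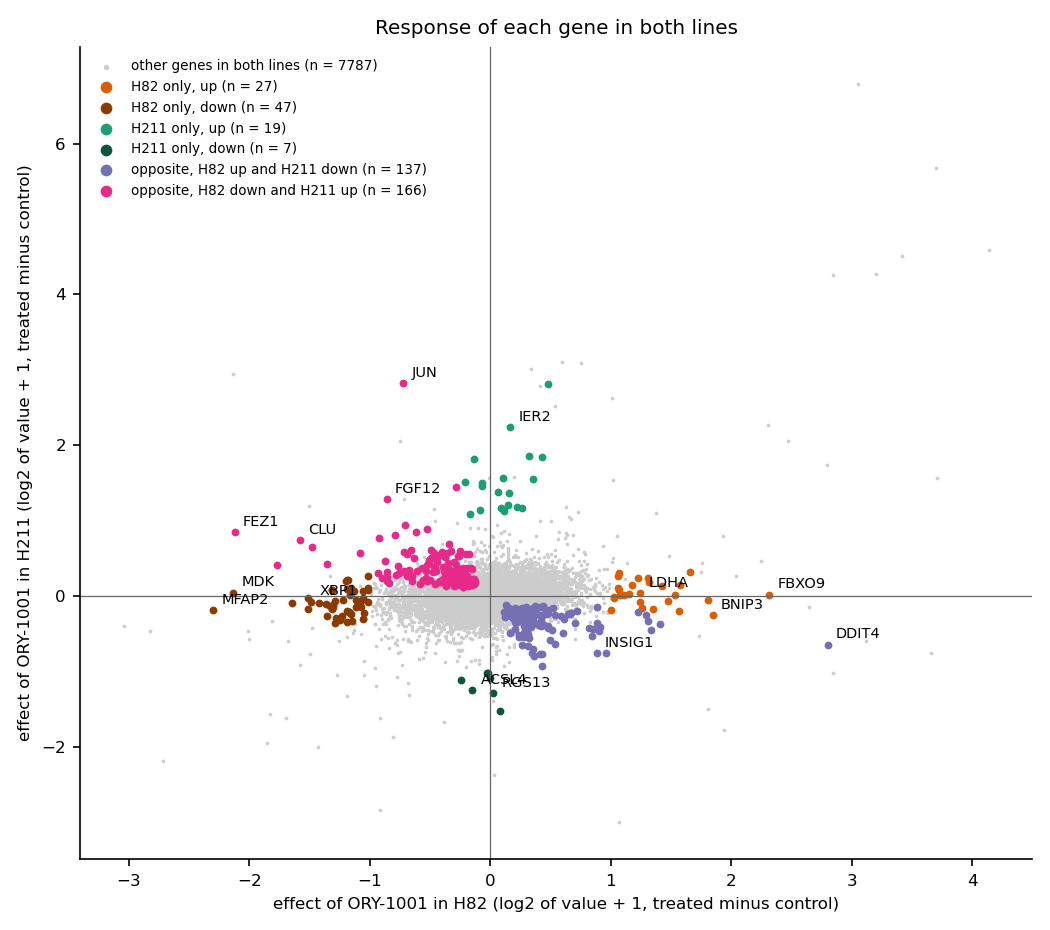
Response of each gene with a mean of at least 5 in both lines, with the H82 response on the x axis and the H211 response on the y axis, both as changes in log2(value + 1), coloured by group. The 74 H82-only and 26 H211-only genes lie along the axes and the 303 opposite genes in the upper left and lower right.

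Each form is shown by 4 genes that mark the contrast, chosen with earlier results of these data known: EGR1 (chr5:138465490-138469315, plus strand), NSG1 (chr4:4348140-4419058, plus), DDIT4 (chr10:72273920-72276036, plus) and HMGCS1 (chr5:43289395-43313512, minus), all protein-coding and placed here by symbol in the GENCODE annotation of GRCh38. EGR1, an immediate early zinc-finger factor induced by growth signals, was at 0.166, 1.24 and 1.30 in the H82 controls and at 1.04, 0.220 and 0.384 in treated H82. Its H211 values were 11.7, 11.4 and 13.3 in the controls and 330, 368 and 310 with ORY-1001. The H211 groups were far apart and the H82 groups overlapped close to 0. The difference between the responses was 4.95 (SE 0.349, adjusted p = 2.86e-06), with a 27.7-fold rise in H211. H82 scarcely expressed the gene, so EGR1 is not among the genes expressed in both lines.

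NSG1, a neuronal vesicular trafficking protein, was the reverse. It was at 146, 146 and 151 in the H82 controls and at 8.26, 8.91 and 7.11 with the drug, an 18.2-fold fall. H211 had 3.58, 3.34 and 4.55 in the controls and 4.55, 4.92 and 3.12 in the treated libraries, which overlapped. The difference was 4.13 (SE 0.191, adjusted p = 1.14e-07), and the H211 mean, 4.01, lies just under the limit of 5.

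DDIT4, a stress- and hypoxia-induced inhibitor of mTORC1 signalling, moved in opposite directions. It was at 32.0, 29.2 and 26.6 in the H82 controls and at 220, 204 and 205 with ORY-1001, while in H211 it was at 18.1, 18.1 and 19.8 in the controls and at 11.1, 10.9 and 12.7 with the drug. Neither pair of groups overlapped. It was 7.16-fold higher in treated H82 and 1.61-fold lower in treated H211, a difference of -3.45 (SE 0.106, adjusted p = 6.57e-09). HMGCS1, the synthase of the mevalonate pathway that precedes HMG-CoA reductase, was at 26.4, 23.6 and 23.1 in H82 controls, at 67.3, 63.6 and 68.3 in treated H82, at 61.3, 60.5 and 65.0 in H211 controls and at 45.8, 48.9 and 48.2 in treated H211. Its levels in both lines crossed: H211 was higher in the controls and H82 was higher with the drug. The difference was -1.79 (SE 0.0794, adjusted p = 8.69e-08). Without the 4 libraries the HMGCS1 fall in H211 was no longer called (adjusted p = 0.0527).

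**Figure D2:**
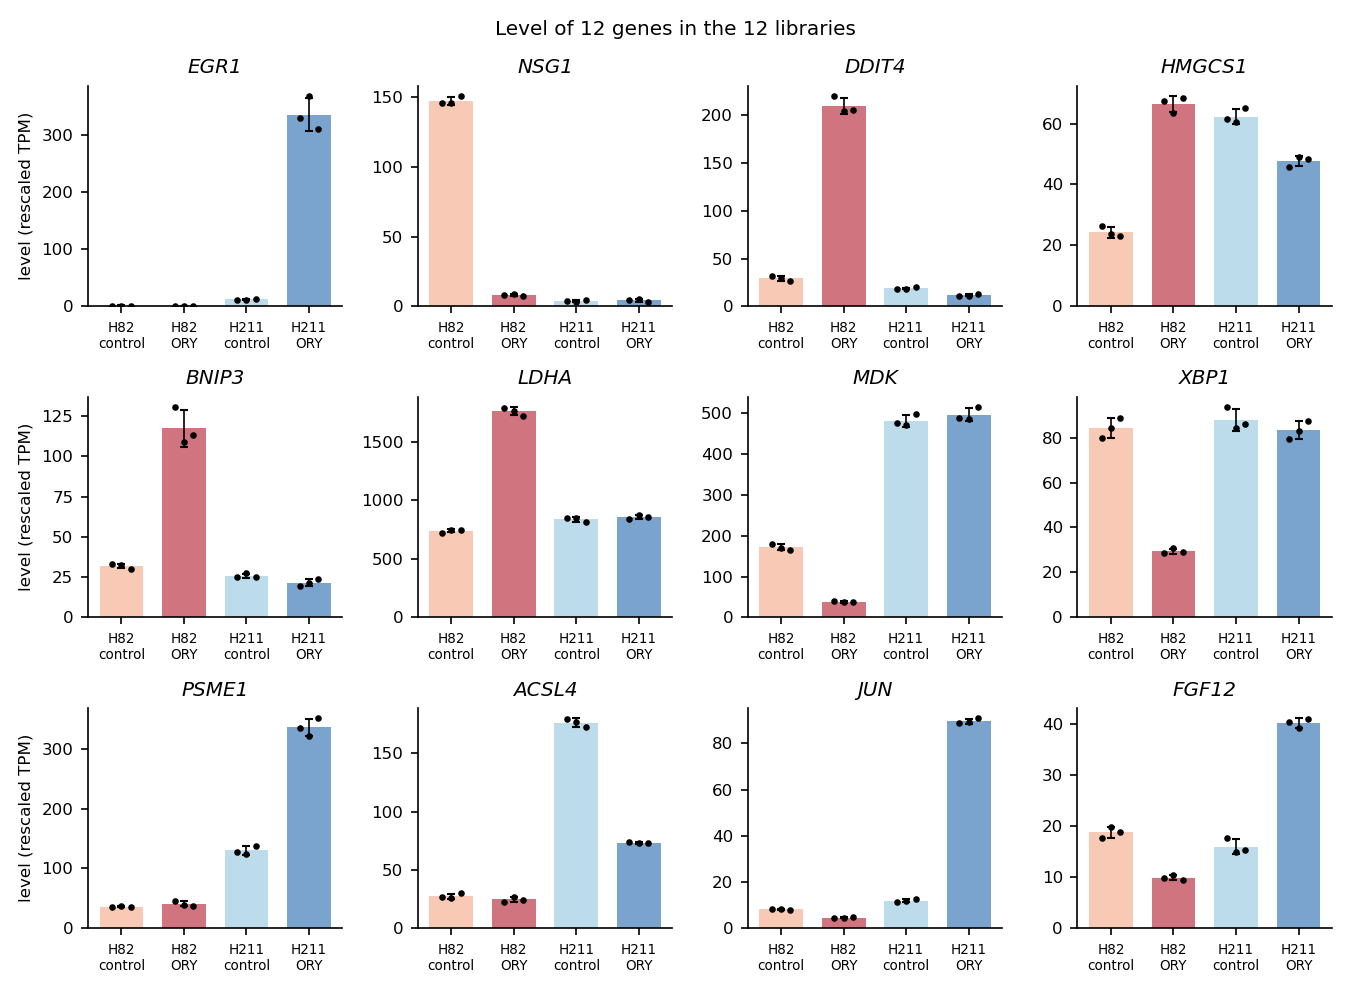
Level (rescaled TPM) of 12 genes in every library, by line and treatment, each point 1 library, each bar the mean of 3 and each error bar the SD. EGR1 rises from between 11.4 and 13.3 to between 310 and 368 in H211 and stays near 0 in H82, and DDIT4 moves up in H82 and down in H211.

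Cholesterol synthesis was the list with the most genes moving in opposite directions. The cholesterol pathway is controlled by SREBP factors, which INSIG1 holds in the endoplasmic reticulum when sterol is plentiful, and which switch on the enzymes and INSIG1 itself when it is not. Over all tested genes, 19.1% rose and 23.9% fell in H82, and 8.95% rose and 9.61% fell in H211. The response was higher in H211 for 17.8% and lower for 14.3%. Counts of this and later lists stand beside these shares. Of 24 cholesterol genes tested, 19 rose and 2 fell in H82, while 0 rose and 17 fell in H211. The response was lower in H211 for 21 and higher for 1. The median response was 0.43 in H82 and -0.32 in H211, against -0.02 and 0.00 over all tested genes. By the definition above, 15 of the 24 were in the opposite group, out of 137 such genes among all tested. Without the 4 libraries 9 fell in H211, and the difference was still lower for 19.

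INSIG1 was at 41.7, 41.5 and 43.1 in the H82 controls and at 81.1, 75.9 and 78.5 in treated H82. In H211 it was at 52.2, 54.6 and 52.3 in the controls and at 32.4, 30.5 and 29.7 with the drug. No groups overlapped within a line, and the difference was -1.65 (SE 0.0617, adjusted p = 2.01e-08). The members named next were chosen after their values were seen. SREBF2, which encodes the SREBP factor of this pathway, fell in both lines, by 0.65 and 0.45, and its difference missed the threshold (0.20, adjusted p = 0.068). PMVK, the phosphomevalonate kinase, was the 1 member with a higher response in H211, at -0.45 in H82 and 0.18 in H211 (difference 0.63, adjusted p = 0.0014).

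SREBF1, which encodes the SREBP factor of fatty acid synthesis, fell in H211 only. It was at 51.2, 36.4 and 38.7 in the H82 controls and at 37.0, 44.8 and 42.2 in treated H82, which overlapped. In H211 it went from 57.9, 59.7 and 54.4 to 30.1, 26.9 and 26.1, with a difference of -1.01 (SE 0.161, adjusted p = 0.000758). Its fall in H211 was not called without the 4 libraries (adjusted p = 0.0608). Of 11 fatty acid synthesis genes, 5 rose and 2 fell in H82, and 0 rose and 6 fell in H211. SCD, the stearoyl-CoA desaturase, and FADS2, a desaturase of polyunsaturated fatty acids, were both in the opposite group: SCD changed by 0.43 in H82 and -0.93 in H211 (difference -1.36, adjusted p = 1.14e-07), and FADS2 by 0.26 and -0.65 (difference -0.92, adjusted p = 2.62e-05).

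Sequences around a core of the sterol response element, CACNCCAC on either strand, are shown for 2 members of this opposite group that hold it within the 250 bases before a gene start. The windows, 5′ to 3′ on the gene's strand with the match, here to the reverse complement of the core, in capitals, are at chr7:155297659-155297688 for INSIG1, on the plus strand, and chr10:1048983-1049012 for IDI1, the isopentenyl-diphosphate isomerase, on the minus strand (RefSeq, GRCh38.p14).
INSIG1: gcgggccggcgGTGGCGTGtgcgcacgtca
IDI1: ggccgggcgatGTGGCGTGgactggcgctg
The match begins 208 bases before the start in INSIG1 and 115 in IDI1. This core was in 4 of 23 promoters of the cholesterol list (17.4%) and in 14 of 169 promoters of the genes that rose in H82 and fell in H211 (8.28%), against 4.87% of all 35116 promoters in the table. That opposite group includes 15 genes of the cholesterol list, so these shares overlap. A match describes the letters in the window and does not show binding.

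Hypoxia-induced genes formed a related contrast. These genes carry out the switch to glycolysis, mitophagy and oxygen sensing when HIF factors accumulate. Of 24 tested, 15 rose and 2 fell in H82, and 1 rose and 9 fell in H211. The response was lower in H211 for 18 and higher for 0, and the median response was 0.65 in H82 and -0.21 in H211. The H211 count moved with the processing: it was 1 without the 4 libraries, 5 without H211 control replicate 2, and 13 with totals computed without mitochondrial genes. The difference was still lower for 15 of 23 without those 4.

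BNIP3, a mitophagy receptor, was at 32.8, 32.4 and 30.3 in the H82 controls and at 130, 109 and 113 in treated H82. H211 had 24.9, 27.4 and 25.1 in the controls and 19.4, 21.3 and 23.8 in the treated libraries. These H211 groups did not overlap either, yet the response, -0.26, missed the threshold (adjusted p = 0.0518) and passed it under several other settings. PFKFB3, which makes the sugar phosphate that activates phosphofructokinase, went from 8.94, 7.55 and 7.85 to 23.8, 26.4 and 28.0 in H82. Its H211 values, 5.81, 7.69 and 6.03 against 5.40, 5.81 and 5.23, differed by -0.21 (adjusted p = 0.199). The differences were -2.10 for BNIP3 (SE 0.116, adjusted p = 4.74e-07) and -1.78 for PFKFB3 (SE 0.145, adjusted p = 8.11e-06).

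SLC2A1, the glucose transporter GLUT1, was in the opposite group, at 115, 111 and 118 against 289, 279 and 290 in H82 and at 122, 114 and 112 against 88.8, 96.3 and 89.1 in H211. Its difference was -1.65 (SE 0.0637, adjusted p = 2.64e-08), and its fall in H211 was not called without the 4 libraries (adjusted p = 0.0846). Among members picked after their values were seen, EGLN3, an oxygen-sensing prolyl hydroxylase, rose in both lines, by 1.66 in H82 and by 0.32 in H211. HIF1A, which encodes a HIF alpha subunit, changed by 0.07 in H82 and by -0.17 in H211, and its difference was not called (-0.24, adjusted p = 0.13).

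Glycolytic enzymes differed mainly through H82. Of 15, 11 rose and 1 fell in H82, and 1 rose and 1 fell in H211, with a lower response in H211 for 10 and a higher one for 1. LDHA, the lactate dehydrogenase A subunit, was at 723, 747 and 748 in the H82 controls and at 1787, 1764 and 1722 in treated H82. H211 had 849, 848 and 810 in the controls and 839, 872 and 856 with the drug, and these overlapped. The LDHA difference was -1.21 (SE 0.0475, adjusted p = 2.84e-08). PGAM1, the phosphoglycerate mutase, rose 2.23-fold in H82 and had a response of 0.02 in H211, a difference of -1.13 (adjusted p = 7.24e-07).

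**Figure D3:**
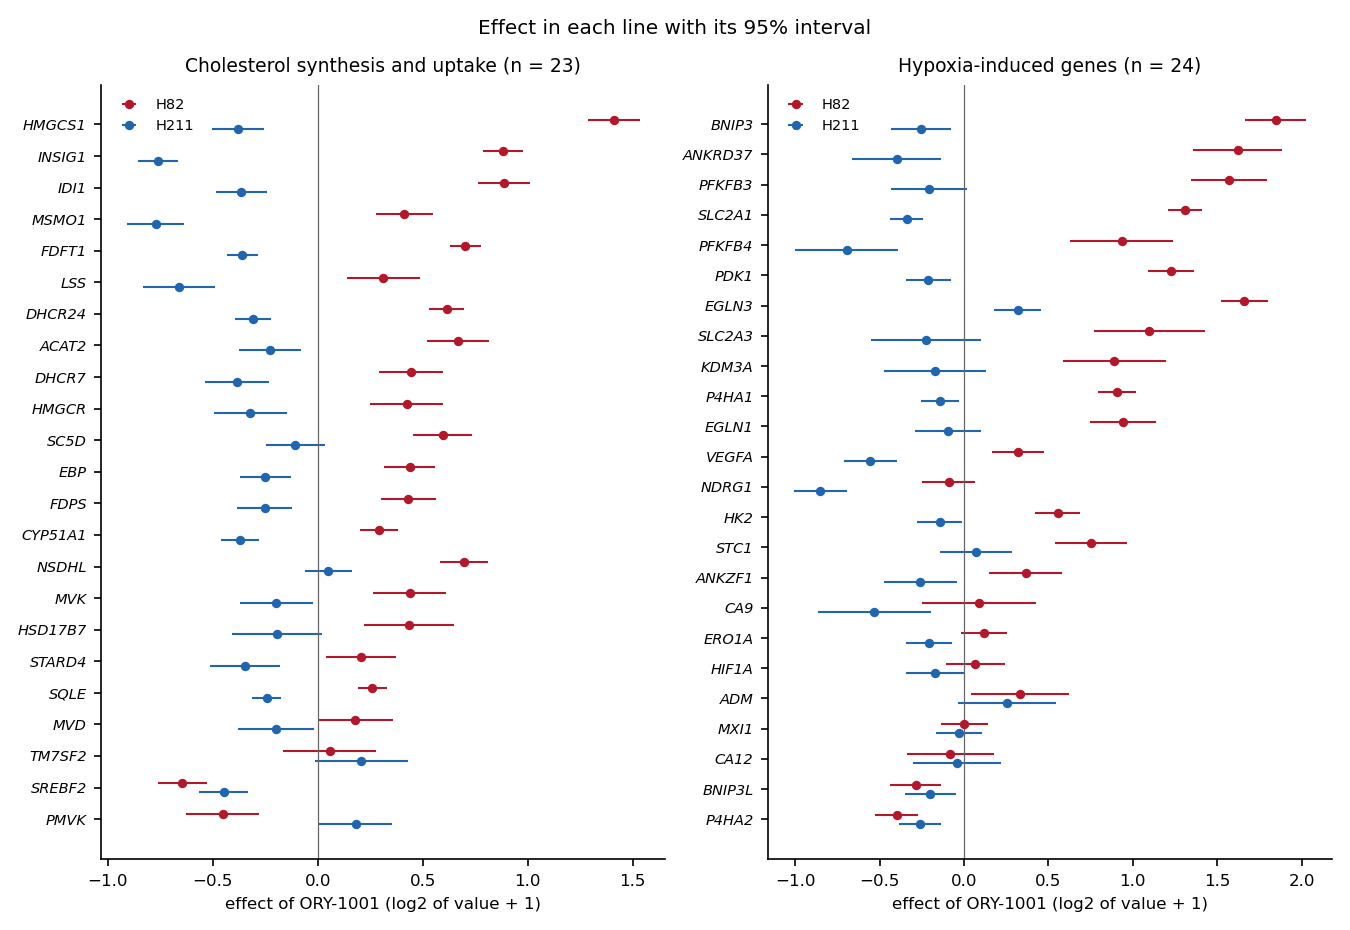
Response of each cholesterol (left, 23 of the 24) and hypoxia-induced gene (right, 24 genes) in each line, as the change in log2(value + 1) with its 95% interval. Of all 24 cholesterol genes 19 rose in H82 and 17 fell in H211, and in the hypoxia panel 15 rose in H82 and 9 fell in H211.

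The core of the hypoxia response element, ACGTG on either strand, is shown in the promoters of BNIP3, LDHA and PGK1, the phosphoglycerate kinase, whose H82 response was 0.52 and whose H211 response was not called (adjusted p = 0.97). PGK1 and IDI1 were chosen for their sites. Windows are chr10:131982040-131982069, minus strand, for BNIP3, chr11:18394366-18394395, plus strand, for LDHA and chrX:78104034-78104063, plus strand, for PGK1 (RefSeq, GRCh38.p14), with matches in capitals.
BNIP3: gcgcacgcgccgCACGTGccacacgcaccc
LDHA: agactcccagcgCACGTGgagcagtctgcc
PGK1: gcggcgtgccggACGTGacaaacggaagcc
In BNIP3 and LDHA the core matches on both strands at once and is also the E-box CACGTG, a site of MYC and related factors. The core was in 11 of 25 promoters of the hypoxia list (44%), in 11 of 34 of the glycolysis list (32.4%) and in 8 of 26 of the genes that rose in H82 only (30.8%). It was in 18.5% of all promoters, 22.3% of those of tested genes and 24.3% of those of genes in both lines. Lists that mostly fell in H82 varied, with 40% for amino acid transporters, 38.1% for the unfolded protein response and 13.3% for tRNA synthetases. The share was 30% for H211-only rises, 14.3% for H211-only falls and 13.9% for H82-only falls. The core was therefore not particular to genes that rose in H82.

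Other genes that rose in H82 only had different roles. FBXO9, a substrate receptor of an SCF ubiquitin ligase, was at 11.6, 9.49 and 10.4 in the H82 controls and at 55.6, 54.5 and 58.1 with the drug. The H211 controls had 86.9, 86.4 and 87.8 and the treated libraries 90.6, 87.5 and 85.9. Treated H82 lay closer to the H211 level than its controls did, and the difference was -2.30 (SE 0.0828, adjusted p = 1.63e-08). GAL, the neuropeptide galanin, was at 20.8, 16.9 and 18.6 against 52.99, 43.9 and 51.8 in H82. Its H211 values were 1213, 1217 and 1187 in the controls and 1066, 1028 and 1123 in treated libraries, with no overlap and a response of -0.17 that was not called (adjusted p = 0.168). The GAL difference was -1.53 (SE 0.112, adjusted p = 3.84e-06). SNHG9, a small nucleolar RNA host gene, rose 3.49-fold in H82 and had an H211 response of -0.07 (difference -1.55, SE 0.29, adjusted p = 0.00211). It left the group in 7 of 25 alternative settings.

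SNAI1, the SNAG-domain repressor of epithelial genes, was the 1 gene of the LSD1 partner list in a one-line group. It was at 18.9, 18.4 and 17.2 in the H82 controls and at 46.0, 48.0 and 45.2 with ORY-1001, against 6.73, 7.20 and 7.49 and then 7.98, 9.38 and 8.39 in H211. Neither line's groups overlapped: the gene rose 2.56-fold in H82 and 1.20-fold in H211 (difference -1.07, SE 0.0943, adjusted p = 1.43e-05). Of the 16 genes of that list, the response was higher in H211 for 4 and lower for 4. INSM1 was at 25.7, 24.1 and 21.7 against 14.5, 16.4 and 17.4 in H82, with an H211 response of 0.15 and a difference of 0.69 (adjusted p = 0.0197). GFI1B was at 14.3, 13.7 and 12.5 against 24.7, 25.9 and 23.8 in H211 and under 1 in H82, a difference of 0.90 (adjusted p = 0.00673). The differences of INSM1 and GFI1B were each lost in at least 1 alternative setting.

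Genes that fell in H82 only, the largest one-line group, included growth, matrix and secretory pathway genes. MDK, the heparin-binding growth factor midkine, was at 181, 171 and 166 in the H82 controls and at 41.2, 37.1 and 37.4 with the drug. The H211 values, 476, 472 and 498 in the controls and 489, 487 and 515 with the drug, overlapped. Its difference was 2.18 (SE 0.0686, adjusted p = 7.57e-09). MFAP2, a protein of elastic microfibrils, fell 5.49-fold in H82, from 40.4, 36.7 and 37.5 to 7.46, 6.25 and 7.16. In H211 it was at 71.8, 72.2 and 77.4 and then at 66.0, 63.2 and 64.1, without overlap, a response of -0.19 (adjusted p = 0.0533). The difference was 2.11 (SE 0.0878, adjusted p = 4.97e-08).

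ZYX, the focal adhesion protein zyxin, was at 15.5, 16.8 and 15.7 against 4.22, 4.16 and 4.95 in H82. It was at 75.1, 69.0 and 65.0 against 64.1, 71.8 and 59.4 in H211, where the groups overlapped. ARHGEF2, a microtubule-bound activator of RhoA, was at 48.3, 43.7 and 48.3 against 14.4, 16.9 and 16.1 in H82 and ran from 26.8 to 30.6 over the 6 H211 libraries. The differences were 1.55 for ZYX (adjusted p = 4.58e-06) and 1.48 for ARHGEF2 (adjusted p = 1.99e-06).

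Many stress genes of protein synthesis fell in H82, but most of them were not H82-only falls. The 47 H82-only falls held 2 integrated stress response genes, 4 cytosolic tRNA synthetases and 3 unfolded protein response genes. The integrated stress response raises amino acid synthesis, amino acid transport and tRNA charging through ATF4, and the unfolded protein response raises chaperones of the endoplasmic reticulum through XBP1 and ATF6. Of 24 genes of the integrated stress response, 2 rose and 20 fell in H82 and 1 rose and 14 fell in H211, and the response was higher in H211 for 16 and lower for 1. Without the 4 libraries 6 fell in H211, and the difference was higher for 15 and lower for 1. ASNS, the asparagine synthetase, went from 618, 658 and 670 to 96.4, 89.3 and 86.1 in H82, and from 111, 111 and 119 to 84.4, 86.1 and 75.1 in H211. It fell in both lines without overlap, 7.16-fold in H82 and 1.39-fold in H211, a difference of 2.35 (SE 0.0857, adjusted p = 1.63e-08). Members with an H211 response near 0, chosen after their values were seen, included DDIT3, the factor CHOP, with -1.17 in H82 and 0.01 in H211, and CEBPG, a bZIP partner of ATF4, which fell by 0.78 in H82 and had an adjusted p of 1 in H211. ATF4 itself fell in both lines, by 0.27 and 0.34, and its difference was -0.07 (adjusted p = 0.60).

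Of 16 amino acid transporters, 2 rose and 12 fell in H82 and 0 rose and 7 fell in H211, with a higher response in H211 for 8. The H211 count was 1 without the 4 libraries. SLC7A11, the cystine transporter, was at 7.72, 7.41 and 7.34 against 1.60, 1.37 and 1.56 in H82 and at 1.69, 1.61 and 1.47 against 0.634, 0.788 and 0.807 in H211. Its difference on the log2(value + 1) scale, 1.19 (adjusted p = 3.6e-05), is affected by the low H211 levels, since the added 1 shrinks changes there. Of 20 cytosolic tRNA synthetases, 2 rose and 13 fell in H82 and 2 rose and 7 fell in H211 (2 fell without the 4 libraries), and the response was higher in H211 for 13 and lower for 1.

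SARS and AARS, which charge serine and alanine tRNAs, both fell 2.47-fold in H82. SARS was at 428, 441 and 439 against 183, 171 and 176 in H82 and at 138, 135 and 144 against 131, 121 and 125 in H211, a difference of 1.15 (adjusted p = 2.46e-07). The H211 response of SARS, -0.15, was called (adjusted p = 0.0288) and lost its call in 8 alternative settings. AARS also fell in H211, 1.29-fold, which lies within the bound of 1.5-fold. Of the 74 H82-only genes, 12 had a called H211 change of this kind, and of the 26 H211-only genes 8 had a called H82 change.

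Of 18 unfolded protein response genes, 2 rose and 12 fell in H82 and 2 rose and 1 fell in H211, with a higher response in H211 for 10 and a lower one for 2. XBP1 was at 79.8, 84.5 and 88.8 in the H82 controls and at 28.5, 30.8 and 29.004 in treated H82. The H211 values, 93.4, 84.1 and 85.9 against 79.5, 82.9 and 87.4, overlapped, and the difference was 1.41 (SE 0.0799, adjusted p = 5.45e-07). HSPA5, the main chaperone of the endoplasmic reticulum, was at 197, 207 and 208 against 114, 110 and 117 in H82 and at 133, 130 and 132 against 148, 143 and 151 in H211. It was 1.80-fold lower in treated H82 and 1.12-fold higher in treated H211, a difference of 1.01 (adjusted p = 2.66e-07). The rise in H211 was not called without the 4 libraries or with totals computed without mitochondrial genes.

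Immediate early genes were another list with rises in H211. They encode short-lived AP-1, EGR and related factors that are switched on within minutes of a growth or stress signal. Of 24 tested, 6 rose and 4 fell in H82, and 16 rose and 1 fell in H211. The H82 counts lie near the shares over all tested genes, 19.1% and 23.9%, so nothing is read from them. The response was higher in H211 for 15 and lower for 1, with a median of -0.03 in H82 and 0.74 in H211. Of the 24, 10 had a mean of at least 5 in both lines. JUN, an AP-1 subunit, was at 8.57, 8.22 and 7.93 in the H82 controls and at 4.58, 4.53 and 4.70 with the drug. In H211 it was at 11.2, 11.8 and 12.5 in the controls and at 88.7, 89.3 and 90.8 with the drug. Neither line's groups overlapped, and JUN, 1.79-fold lower in treated H82 and 7.56-fold higher in treated H211, had a difference of 3.54 (SE 0.0759, adjusted p = 6.37e-10).

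IER2, a nuclear immediate early protein, was at 17.7, 18.3 and 18.0 against 19.8, 20.8 and 20.5 in H82 and at 20.6, 21.0 and 19.7 against 102, 101.2 and 97.6 in H211. It rose in both lines without overlap, 1.13-fold in H82 and 4.91-fold in H211, and its difference was 2.08 (SE 0.0599, adjusted p = 4.98e-09). Of members chosen after their values were seen, JUNB rose 3.80-fold in H211 and 1.26-fold in H82, and ATF3, a stress-induced bZIP factor, rose 3.12-fold in H211 with a response of 0.11 in H82 (adjusted p = 0.18). NAB2, a corepressor of EGR factors, was the 1 member with a lower response in H211 (-0.61, adjusted p = 0.016). PLK2, a polo-like kinase, was at 6.69, 4.78 and 5.78 against 4.91, 4.57 and 4.89 in H82, which overlapped. In H211 it went from 4.06, 4.16 and 4.05 to 11.3, 16.0 and 13.4, a difference of 1.72 (SE 0.174, adjusted p = 3.85e-05). PLK2 kept its H211-only group in 22 of 25 alternative settings.

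The ERK feedback list, which holds genes of the ERK kinase pathway, some of which restrain it, did not share one direction. Of 13, the response was higher in H211 for 3 and lower for 3, and 3 had a mean of at least 5 in both lines. SPRY1, a Sprouty inhibitor of receptor tyrosine kinase signalling, was at 6.61, 6.54 and 5.96 against 10.7, 10.6 and 10.3 in H82 and at 13.6, 15.7 and 14.6 against 11.5, 13.0 and 11.95 in H211. Its difference was -0.89 (adjusted p = 6.29e-05), and its H211 fall (adjusted p = 0.0298) was lost in 5 alternative settings. ETV1, an ETS factor downstream of ERK, rose in H211 from 2.38, 2.77 and 2.86 to 6.13, 8.26 and 6.02 and was at 0.274 or less in all H82 libraries, a difference of 1.104 (adjusted p = 0.000946).

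**Figure D4:**
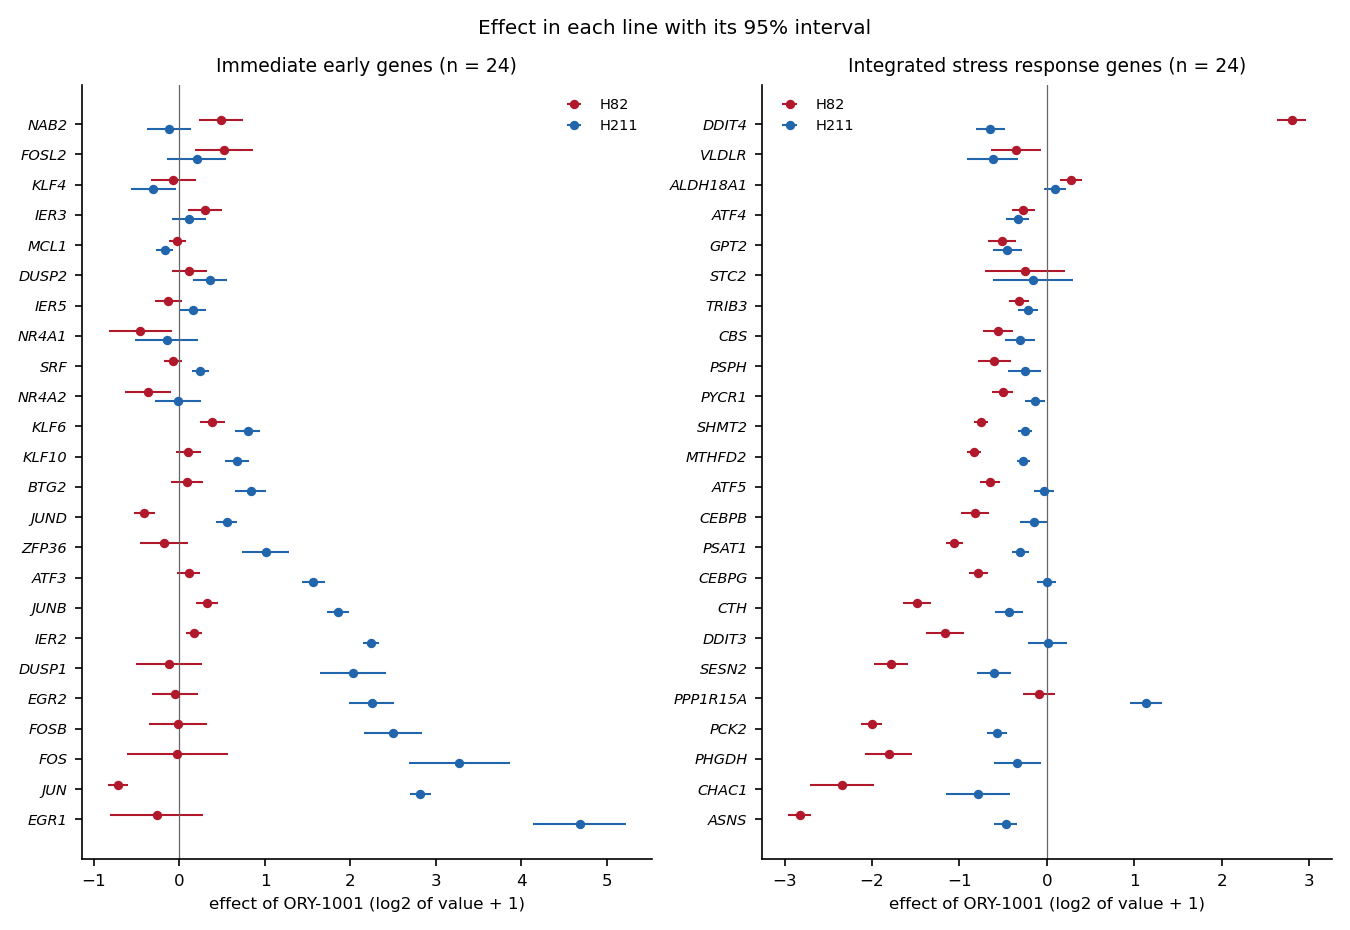
Response of each tested immediate early gene (left, 24 genes) and integrated stress response gene (right, 24 genes) in each line, as the change in log2(value + 1) with its 95% interval. In the left panel 16 genes rose in H211 and 6 in H82, and in the right panel 20 fell in H82 and 14 in H211.

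Antigen presentation genes rose in both lines, and the difference between the responses concerned size and a few members. MHC class I molecules show peptides cut by the immunoproteasome and moved by the TAP transporter. Of 19 tested, 14 rose in H82 and 16 in H211, and 0 fell in either. The response was higher in H211 for 10 (6 with a pseudocount of 0.1) and lower for 2. Chosen after their values were seen, B2M, the shared light chain, rose by 2.31 in H82 and 2.27 in H211 (difference -0.04, adjusted p = 0.80), and TAP2, a TAP subunit, rose by 3.71 and 1.56 (difference -2.15, adjusted p = 5.2e-05).

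PSME1 and PSME2, the subunits of the proteasome activator PA28, responded in H211 only. PSME1 was at 36.3, 37.3 and 34.8 against 45.4, 38.8 and 37.7 in H82, a response of 0.16 (adjusted p = 0.0787) although the groups did not overlap. In H211 it was at 128, 125 and 138 against 335, 322 and 350, and the difference was 1.20 (SE 0.0956, adjusted p = 7.1e-06). PSME2, chosen with PSME1 in view, was at 46.4, 55.0 and 40.8 against 51.5, 50.1 and 49.0 in H82, which overlapped, and at 143, 148 and 161 against 343, 339 and 337 in H211 (difference 1.08, adjusted p = 6.73e-05).

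STAT3, which answers to cytokine receptors, was at 44.2, 45.6 and 42.4 against 80.7, 84.7 and 82.9 in H211 with a response of -0.10 in H82 (difference 1.00, adjusted p = 1.69e-05). Of 18 interferon-stimulated genes, 3 had a mean of at least 5 in both lines, so most were low in at least 1 line. Of the 18, 8 rose in H82 and 13 in H211, and 0 fell in either. The H211 count was 7 of 16 without the 4 libraries. The response was higher in H211 for 9 and lower for 2. IFITM3, a membrane restriction factor, was at 4.43, 4.94 and 4.997 against 7.73, 10.3 and 8.41 in H82 and at 9.51, 9.90 and 8.49 against 86.1, 86.5 and 86.8 in H211 (difference 2.34, SE 0.128, adjusted p = 4.74e-07). USP18, an inhibitor of interferon receptor signalling, went the other way, at 2.03, 2.05 and 2.40 against 14.6, 13.3 and 13.996 in H82 and at 25.8, 27.4 and 25.8 against 35.7, 37.5 and 37.1 in H211 (difference -1.78, SE 0.0879, adjusted p = 2.09e-07).

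A site of interferon regulatory factors, GAAA, any 2 bases and again GAAA on either strand, is shown in PSME2 and IFITM3, whose responses were both higher in H211. Windows are chr14:24146619-24146648 and chr11:320893-320922, both on the minus strand (RefSeq, GRCh38.p14), with the match in capitals, beginning 28 and 52 bases before the start.
PSME2: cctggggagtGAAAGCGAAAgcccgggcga
IFITM3: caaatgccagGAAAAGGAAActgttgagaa
The site was in 16 of 20 promoters of the interferon-stimulated list (80%), in 7 of 19 of the antigen presentation list (36.8%) and in 3 of 20 of the genes that rose in H211 only (15%), against 3.02% of all promoters. IFITM3 was chosen by its difference, and PSME2 for its site.

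The other genes of the H211-only groups had no list in common. MVB12A, a subunit of the ESCRT-I sorting complex, was at 111, 109 and 114 against 105, 97.1 and 102 in H82, a response of -0.14 (adjusted p = 0.0785) without overlap. In H211 it went from 4.44, 4.81 and 3.97 to 18.2, 17.4 and 18.3, a difference of 1.95 (SE 0.0808, adjusted p = 4.97e-08). MVB12A kept its group in 20 of 25 alternative settings.

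RGS13, a brake on G-protein signalling that marks tuft cells, was at 11.4, 5.67 and 10.7 against 8.86, 9.79 and 8.58 in H82, which overlapped, and at 1349, 1383 and 1467 against 581, 573 and 562 in H211. Its difference was -1.31 (SE 0.25, adjusted p = 0.00232), and its H211 fall was not called without the 4 libraries (adjusted p = 0.0777). ACSL4, which activates polyunsaturated fatty acids, was at 179, 177 and 172 against 74.3, 72.8 and 73.1 in H211 and ran from 22.9 to 29.9 in H82 (difference -1.105, SE 0.0902, adjusted p = 8.23e-06). TMTC3, an O-mannosyltransferase of the endoplasmic reticulum, fell 2.26-fold in H211 with a response not called in H82 (adjusted p = 0.992, difference -1.09, SE 0.216, adjusted p = 0.00301). TMTC3 kept its group in 19 of 25 alternative settings, and SREBF1 in 21.

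In all 100 one-line genes the treated and control libraries of the responding line did not overlap, against 8077 of all 15456 tested genes in H82 and 5469 in H211. The rule asks for a change of at least 2-fold, so nothing is read from that count. At the edge of the rule, WASH5P, with an H82 response of 1.003, was just inside and FYTTD1, with -0.9967, just outside. TMEM87A, at -1.022 in H211, was just inside and OLMALINC, at -0.9422, just outside. The responding line's median response was 1.247 for H82-only rises, -1.19 for H82-only falls, 1.46 for H211-only rises and -1.12 for H211-only falls.

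Of the 303 genes that moved in opposite directions, a group with no minimum fold, 137 rose in H82 and fell in H211, with median responses of 0.32 and -0.28, and 166 fell in H82 and rose in H211, with medians of -0.34 and 0.27. This balance depended on the scaling, with 98 of 309 genes of the second kind when totals were computed without mitochondrial genes, and 176 and 162 genes after quantile normalization. The definition was met by 86 genes without the 4 libraries. On the log2(value + 1) scale the change was at least 1.5-fold in both lines for 3 genes of the first kind, DDIT4, INSIG1 and TXNIP, and for 10 of the second.

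TXNIP, an inhibitor of thioredoxin that also restrains glucose uptake, was at 14.7, 11.1 and 11.99 against 26.6, 23.8 and 25.7 in H82 and at 52.7, 56.2 and 54.7 against 34.4, 31.0 and 30.4 in H211. It was 2.01-fold higher in treated H82 and 1.71-fold lower in treated H211 without overlap (difference -1.72, SE 0.125, adjusted p = 3.69e-06). Its fall in H211 was not called without the 4 libraries (adjusted p = 0.058). NBEAL2, a BEACH-domain protein of secretory granules, and KLHL17, an actin-binding Kelch protein, followed with differences of -1.17 (adjusted p = 0.000496) and -1.38 (adjusted p = 0.000349). The NBEAL2 change in each line, and the KLHL17 change in H211, were not called without the 4 libraries.

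Of the 5 genes named by size that fell in H82 and rose in H211, FGF12, FEZ1 and TUBB3 have neuronal roles. This does not describe the whole group: of its 166 genes, 4 were on the neuroendocrine list and 0 on the synaptic list. FGF12, an intracellular partner of sodium channels, was at 17.6, 19.8 and 18.8 against 9.86, 10.3 and 9.43 in H82 and at 17.7, 14.8 and 15.3 against 40.4, 39.1 and 40.8 in H211. It began at similar levels in both lines and ended far apart, with a difference of 2.14 (SE 0.0979, adjusted p = 1.1e-07). FEZ1, an adaptor of axonal transport, was at 23.2, 25.1 and 24.1 against 4.83, 4.81 and 4.69 in H82 and at 5.76, 6.71 and 6.96 against 13.3, 11.5 and 12.5 in H211. Its order between the lines turned over, and the difference was 2.97 (SE 0.108, adjusted p = 1.63e-08).

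TUBB3, a neuronal beta-tubulin, was at 96.2, 103 and 95.8 against 49.1, 53.5 and 51.6 in H82 and at 33.9, 33.1 and 37.5 against 58.7, 64.7 and 56.0 in H211. The treated lines were closer to each other than the controls had been, and the difference was 1.68 (SE 0.0896, adjusted p = 3.75e-07). TSPAN4, a tetraspanin, was at 9.18, 10.2 and 9.45 against 4.25, 5.05 and 6.32 in H82 and at 9.46, 10.4 and 10.6 against 18.5, 17.2 and 19.9 in H211 (difference 1.59, adjusted p = 2.83e-05). CLU, the secreted chaperone clusterin, fell 3.02-fold in H82 and rose 1.72-fold in H211 (difference 2.32, SE 0.17, adjusted p = 3.98e-06). The others of those 10 genes, JUN aside, were ST6GALNAC5, HSPA1A, SEMA3C and MOV10, with differences of 1.46, 1.64, 2.13 and 1.27.

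Many neuroendocrine and synaptic genes fell in H82. Of 25 neuroendocrine markers, 2 rose and 21 fell in H82, and 5 rose and 2 fell in H211, so that the response was higher in H211 for 19 and lower for 1. The H211 rises were 2 without the 4 libraries and 9 without H211 control replicate 3. Of the 25, 8 had a mean of at least 5 in both lines, and many members were low in H211 controls: CHGA, the granule protein chromogranin A, had a mean of 98.1 in the H82 controls and 1.61 in the H211 controls. NCAM1, the neural cell adhesion molecule, was expressed in both, at 65.3, 67.7 and 64.8 against 35.3, 38.5 and 34.6 in H82 and at 58.5, 56.6 and 54.2 against 73.8, 68.9 and 68.8 in H211. Its groups did not overlap in either line, and its difference was 1.17 (SE 0.0708, adjusted p = 8.7e-07). Of 21 synaptic and channel genes, 0 rose and 14 fell in H82 and 0 rose and 2 fell in H211, with a higher response in H211 for 15 and a lower one for 1. Of the 21, 5 had a mean of at least 5 in both lines. CPLX3, which clamps synaptic vesicle fusion, was at 42.7, 42.0 and 42.1 against 5.80, 5.13 and 5.17 in H82 and at 0.544 or less in all H211 libraries.

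Tuft-cell genes fell mostly in H211, but 1 of the 22 tested had a mean of at least 5 in both lines. Of the 22, 2 rose and 3 fell in H82, and 1 rose and 11 fell in H211, with a lower response in H211 for 10 and a higher one for 1. Without the 4 libraries 4 fell in H211 and the difference was lower for 5 of 20. PTGS1, the prostaglandin synthase COX-1, fell in H211 from 12.1, 12.2 and 10.4 to 0.904, 0.892 and 0.970 and was under 0.5 in all H82 libraries (difference -2.41, SE 0.134, adjusted p = 4.86e-07). CHAT, the choline acetyltransferase, was expressed in both lines, at 15.4, 14.1 and 15.2 against 13.8, 13.8 and 12.7 in H82 and at 6.03, 6.85 and 6.36 against 1.57, 1.60 and 1.43 in H211. Its difference was -1.40 (SE 0.101, adjusted p = 3.24e-06), and its H211 mean kept it out of the one-line groups.

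Signalling and lineage genes on other lists included further opposite changes. ID4, an inhibitor of basic helix-loop-helix factors, was at 6.16, 5.73 and 6.17 against 1.91, 1.82 and 1.76 in H82 and at 16.9, 18.3 and 17.1 against 50.4, 54.0 and 53.2 in H211. It fell 3.29-fold in H82 and rose 3.02-fold in H211 (difference 2.85, SE 0.0834, adjusted p = 4.98e-09), and its H82 level kept it out of the opposite group. ID1, of the same family, rose in both lines, 3.93-fold in H82 and 1.74-fold in H211 (difference -1.14, adjusted p = 2.34e-06). The family therefore did not share one pattern. DLL1, a Notch ligand, was at 0.663, 0.706 and 1.03 against 5.17, 4.34 and 4.44 in H82 and at 62.4, 55.1 and 59.4 against 64.0, 59.5 and 68.4 in H211 (difference -1.54, adjusted p = 1.1e-05). MYC was at 443, 425 and 411 against 605, 600 and 545 in H211, with a response of -0.12 in H82 (difference 0.57, adjusted p = 0.00017).

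Of 12 YAP and TEAD pathway genes, which carry the Hippo signal, 0 rose and 3 fell in H82 and 7 rose and 1 fell in H211 (3 of 10 rose without the 4 libraries), with a higher response in H211 for 6. The share that fell in H82 was near the 23.9% of all tested genes, and 5 of the 12 had a mean of at least 5 in both lines. YAP1, the coactivator, rose in H211 from 0.958, 1.05 and 0.732 to 6.23, 5.55 and 5.30 and was under 0.2 in all H82 libraries, a difference of 1.76 (SE 0.14, adjusted p = 7.11e-06). VIM, the intermediate filament vimentin, was at 39.6, 40.3 and 37.9 against 54.0, 53.5 and 50.5 in H82 and at 6.27, 9.21 and 5.25 against 49.3, 54.1 and 53.2 in H211. The treated lines ended at similar VIM levels, and the difference was 2.37 (SE 0.19, adjusted p = 7.5e-06). DCN, which encodes the matrix proteoglycan decorin and was listed as a fibroblast marker, rose in H211 from 3.91, 3.95 and 4.42 to 68.1, 62.1 and 61.5 and was between 0.900 and 2.40 in H82. The other 3 tested members of that list of 12 had no called difference.

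The remaining lists were less one-sided or had few calls. Of 21 interferon receptor and signalling genes the response was higher in H211 for 7 and lower for 0, of 18 neuronal transcription factors higher for 9 and lower for 4, and of 19 epithelial and mesenchymal genes higher for 8 and lower for 3. For the other 5 lists the counts were near even: 4 and 4 of 19 Notch genes, 5 and 5 of 19 TGF-beta and BMP genes, 2 and 2 of 11 MYC network genes, 4 and 5 of 25 cell cycle genes, and 2 and 4 of 13 BCL2 family genes. KRT19, an epithelial keratin, was at 49.1, 47.9 and 51.0 against 174, 172 and 169 in H211 and under 2 in all H82 libraries (difference 2.22, adjusted p = 5.01e-07). HES6, a helix-loop-helix factor of neurogenesis, was at 247, 232 and 246 against 398, 374 and 404 in H82, and its H211 response of -0.09 was not called (adjusted p = 0.137, difference -0.78). BCL2L1, the apoptosis inhibitor BCL-XL, was at 42.8, 45.7 and 45.3 against 72.5, 75.2 and 72.0 in H82 and at 77.9, 90.2 and 79.2 against 84.0, 91.1 and 77.9 in H211, which overlapped (difference -0.67, adjusted p = 0.00031). BMF, a death-promoting member of that family, fell 2.09-fold in H82 and had an H211 response of 0.35 (adjusted p = 0.0548, difference 1.17). PCNA, the sliding clamp of DNA replication, met the opposite definition with small changes, 0.21 in H82 and -0.18 in H211, and left it in 11 of 25 alternative settings.

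**Figure D5:**
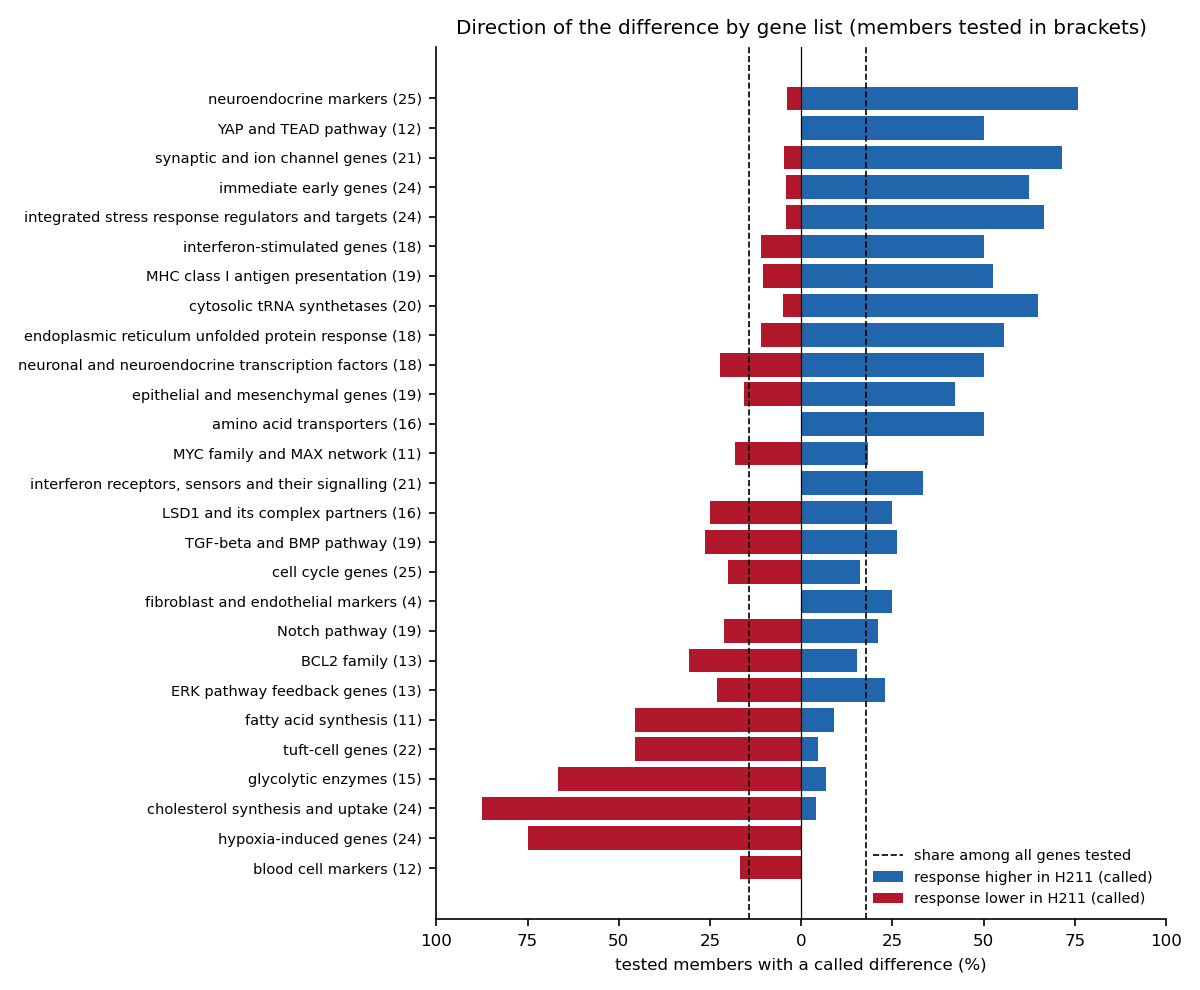
For each gene list, the share of tested members whose response was higher or lower in H211 than in H82, ordered by the list's median difference, with the shares among all tested genes as dashed lines (17.8% and 14.3%). The cholesterol list has 21 of 24 members lower and the neuroendocrine list 19 of 25 higher.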

How the data were processed

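Per the labels' protocols, oligo(dT)-enriched mRNA was made into NEBNext Ultra II libraries and sequenced in paired ends. The submitters' processing notes name Trimmomatic 0.36, STAR 2.5.2b, featureCounts (Subread 1.5.2), DESeq2, Salmon 1.1.0, sleuth 0.30.0, R 4.0.4 and the build hg38, with no role or order. The deposited values are an abundance signal per gene symbol, named TPM by the authors. Their totals ran from 967415 to 1111988 per library, so they are not plain TPM. Such values keep no depth, so read counts, counting intervals and floors cannot be given, and precision rests on the 3 libraries of each group.

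All 12 libraries were fitted with limma 3.58.1 in R 4.3.3 on log2(value + 1), as 4 group means with a trended variance, for genes at 1 or more in at least 3 libraries. Tests are two-sided, with Benjamini-Hochberg adjustment over the 15456 genes and calls at an adjusted p under 0.05. Fold changes are ratios of group means of the values, and responses on the log2(value + 1) scale understate changes of low genes. The fit was also run on simulated data with independent noise of the fitted size and changes set in H211 alone, for genes expressed in both lines. That run does not cover low genes, shared batches or blood transcripts. Of the rows, 24415 were 0 in every library, and 27 carried dates in place of symbols, of which 21 were tested and none is named.

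Named were EGR1, NSG1, DDIT4 and HMGCS1, the 5 most different genes of each direction of the one-line groups, the 5 opposite genes of each direction with the largest smaller change, 2 genes of each list with the smallest p of the difference, and 9 genes that check the lines and the target. A few genes that this rule selects are not reported here. Others are said to be chosen after their values were seen. Members and lists were chosen with earlier results of these data known. Promoters came from a RefSeq table on GRCh38.p14 (250 bases before to 50 after each start), in which 10937 of the 15456 genes were matched by symbol. Same-numbered libraries did not deviate together (r from -0.0805 to 0.058 over 18 pairs, 0 above 0.1). No pairing by number was seen, which with 3 libraries per group does not exclude it, and the libraries were fitted as unpaired. Alternatives were other pseudocounts, filters, scalings, variance priors, library weights, replicate blocks, thresholds of the groups and leaving out libraries.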

Additional observations from a re-analysis of the deposited data

Results flagged for a closer look

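For the genes given here the response to ORY-1001 differed between the lines by the test of the difference itself. The value after each gene is that difference, the H211 response minus the H82 response, in log2(value + 1). Genes that mark the contrast were EGR1 (4.95), NSG1 (4.13), DDIT4 (-3.45) and HMGCS1 (-1.79). Rises of the H82-only group were FBXO9 (-2.3), BNIP3 (-2.1), PFKFB3 (-1.78), SNHG9 (-1.55), GAL (-1.53), LDHA (-1.21), PGAM1 (-1.13) and SNAI1 (-1.07). Falls of the H82-only group were MDK (2.18), MFAP2 (2.11), ZYX (1.55), ARHGEF2 (1.48), XBP1 (1.41), SARS (1.15) and AARS (0.93). Rises of the H211-only group were IER2 (2.08), MVB12A (1.95), PLK2 (1.72) and PSME1 (1.2). Falls of the H211-only group were RGS13 (-1.31), ACSL4 (-1.1), TMTC3 (-1.09) and SREBF1 (-1.01). Genes that rose in H82 and fell in H211, apart from DDIT4 and HMGCS1, were INSIG1 (-1.65), TXNIP (-1.72), NBEAL2 (-1.17), KLHL17 (-1.38), SPRY1 (-0.893), SCD (-1.36), FADS2 (-0.916), SLC2A1 (-1.65) and PCNA (-0.384). Genes that fell in H82 and rose in H211 were FGF12 (2.14), FEZ1 (2.97), TSPAN4 (1.59), TUBB3 (1.68), CLU (2.32), JUN (3.54), HSPA5 (1.01) and NCAM1 (1.17). Outside these groups, immune and signalling genes were USP18 (-1.78), IFITM3 (2.34), STAT3 (0.996), ETV1 (1.1), MYC (0.567), MXD4 (0.546), DLL1 (-1.54), ID4 (2.85) and ID1 (-1.14). Genes of the YAP pathway and of cell shape were YAP1 (1.76), AMOTL2 (1.8), CYR61 (1.98), KRT19 (2.22), VIM (2.37) and DCN (3.63). Genes of amino acid supply were ASNS (2.35), SLC7A11 (1.19) and SLC7A3 (1.61). Lineage and chromatin genes were INSM1 (0.692), GFI1B (0.901), HDAC1 (-0.218), CPLX3 (2.84), HES6 (-0.783), NEUROD4 (1.93), PTGS1 (-2.41) and CHAT (-1.4). Genes of division and survival were TOP2A (0.23), BMF (1.17) and BCL2L1 (-0.67). The blood transcripts were SRGN (-3.73) and MPO (-4.42).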

How the results depend on the processing

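Across up to 25 alternatives for each of the 83 genes chosen by the naming rule, no difference that was called in either fit changed sign. Of the 78 with a called difference, 69 were called under every alternative, and 9 (INSM1, GFI1B, RGS13, TMTC3, ETV1, HDAC1, TOP2A, SRGN and MPO) were lost under at least 1. NEUROD1 was called under 1. Leaving out 4 libraries that differed from others of their group in blood markers, a setting added after the data were seen that keeps other libraries with such transcripts, reduced the called differences to 2899, the H211 changes to 559 and the opposite genes to 86. It leaves fewer libraries, and the cause was otherwise not tested. Leaving out 1 library at a time gave 4299 to 4614 differences, 1960 to 3042 H211 changes and 204 to 316 opposite genes. H82-only genes numbered 46 with a pseudocount of 5, 144 with a mean of at least 1 in both lines, 34 with at least 20, 578 with a response of at least 1.5-fold and 24 with a narrower bound on the other line. H211-only genes numbered 45, 14, 74 and 13 under the last 4 of these settings, and opposite genes 185 with a mean of at least 20. These changes follow from the thresholds themselves, apart from the pseudocount, for which the cause was not tested. With a replicate block common to all groups 4701 differences were called, and with one within each line 4325. For H211 alone these fits called 2497 and 2204, and 2 of the 12 libraries correlated best with their own number. Without H82 control replicate 1, EGR1 in H82 fell by 0.59 and was called (adjusted p = 0.0262). Depth is unknown, so what it limits cannot be stated.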
